A study of Homo sapiens with 13 samples.

Results

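The genes described here are 44 immediate early genes and feedback genes of mitogen-activated protein kinase (MAPK) signalling, taken by symbol from a list of named genes. All 44 matched a row of the table of 43836 genes, and all 44 were among the 17092 genes with enough reads to be tested. They were measured by sequencing polyA RNA of hFOB 1.19, a human fetal osteoblast line immortalized for culture, in 5 groups that differed in serum and in the compound added. Positive controls (2 libraries) had 10% fetal bovine serum in their medium, and negative controls (2 libraries) had none. RES (resveratrol, a stilbene, 3 libraries), POG (peonidin-3-O-glucoside, an anthocyanin, 3 libraries) and DEG (2 libraries analysed, an abbreviation the labels do not expand) received a compound at 1 µg/ml. Per the study's methods both controls held the vehicle DMSO, RES and POG were added to cells already kept in medium lacking serum, and positive controls stayed in serum; these sources do not describe the DEG medium. All groups come from the same cell line, and the labels give no genetic change.

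Immediate early genes are switched on by growth factors and stress without new protein synthesis. The extracellular signal-regulated kinase (ERK) branch of MAPK signalling acts on them through factors bound at their promoters, and many of their products are themselves transcription factors, such as EGR1 and the FOS and JUN subunits of AP-1. A further set of targets slows the pathway down: dual specificity phosphatases (DUSP) remove phosphate from the kinases, Sprouty and SPRED proteins act upstream of RAF, and ZFP36 and ZFP36L1 speed the decay of early mRNAs. In osteoblasts, AP-1 subunits and EGR factors are known for their part in proliferation and in the response to growth factors and load. The rise of these mRNAs after a stimulus is brief, and the time between adding a compound and harvest is not given in the sources used here, so the levels are those of the harvest alone.

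Levels are given as CPM, read counts brought to a common library size and scaled by the trimmed mean of M-values (TMM) method, and fold changes as log2 values with their standard error (SE). A gene is called where edgeR's exact test gave a false discovery rate (FDR, p-values adjusted over 17092 genes) under 0.05. The 12 libraries held 38464619 to 51416358 counted reads, of which the 44 genes took 0.418% to 0.476%. The labels do not say whether libraries of a group came from separate cultures. Per the study's methods RES and POG were added to wells in triplicate, without a link from well to library. The p-values set a difference against the spread between libraries of a group, estimated from all 12 libraries, and that spread may be technical. That spread was small: the median SD of the 44 genes on the log2 scale lay between 0.0238 in negative controls and 0.0661 in positive controls. Of 11 osteoblast markers 9 were tested, with COL1A1 at 2480 to 2830 CPM, RUNX2 at 44.4 to 51.8 CPM, ALPL at 3.25 to 6.45 CPM, TNFRSF11B at 25.6 to 57.7 CPM, BGLAP at 0.43 to 2.02 CPM and a summed level of 4870 to 5410 CPM, while IBSP had 1 read and SP7 53 reads in all. Of 17 markers of other cell types 2 (PECAM1 and SOX9) had at least 1 CPM, CD3E had no read, and their summed level was 6.86 to 13.2 CPM.

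Most of the genes were well expressed: their median level was 62.9 CPM against 17.5 CPM for all genes tested, and 41 of the 44 had a mean of at least 1 CPM. Per kilobase of the longest transcript and averaged over all libraries, IER3, a stress-response gene tied to survival, led with a level of 396 CPM per kb. It was followed by the AP-1 subunits JUNB (113 CPM per kb), JUND (107 CPM per kb) and FOSL1 (107 CPM per kb). The FOSL1 mean joins 229 CPM per kb with serum and 81.1 to 84.6 CPM per kb in the other groups. Per kilobase of the mean transcript length, JUND (170 CPM per kb) and FOSL1 (151 CPM per kb) stood above JUNB (113 CPM per kb). By the longest transcript, EGR1 stood at 35.7 CPM per kb and FOS, the classic partner of JUN, at only 4.5 CPM per kb. EGR2 (0.0834 CPM per kb) and EGR3 (0.0689 CPM per kb) were lowest. Exons of 15 of the 44 genes overlap an exon of another gene, on the opposite strand for 12, and the strand setting of the counting is not given. Less certain therefore are IER3 (overlapped by HCG20 and IER3-AS1), JUNB (HOOK2), MYC (CASC11), PHLDA1 (PHLDA1-AS1), ETV4 (DHX8), MAFF (PLA2G6), KLF4, IER2, CSRNP1, DUSP6, NR4A1 and EGR3. ZFP36L1, ETV5 and EGR2 are overlapped on their own strand, whatever the strand setting. In GENCODE release 44, EGR1, FOS, FOSL1, NR4A2, DUSP8 and SPRY1 have no overlap of either kind.

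Promoter sequence is shown for EGR1, KLF4 and DUSP8, the 3 members called between DEG and POG. The stretches come from the RefSeq promoter table of build GRCh38.p14, read 5′ to 3′ along the strand of the gene. They lie upstream of the RefSeq start and over no exon of GENCODE release 44. The KLF4 stretch is inside the longer span that GENCODE gives this gene (chr9:107484852-107490482). Capitals mark motifs found by search on both strands. In EGR1 (chr5:138465274-138465408, plus strand, 205 to 71 bases before the start) they mark an EGR site and a pair of CArG boxes, the element bound by serum response factor. In KLF4 (chr9:107489905-107489974, minus strand, 205 to 136 bases before the start) they mark an EGR site on the opposite strand, and in DUSP8 (chr11:1572327-1572406, minus strand, 135 to 56 bases before the start) a pair of cAMP response elements (CRE).
EGR1: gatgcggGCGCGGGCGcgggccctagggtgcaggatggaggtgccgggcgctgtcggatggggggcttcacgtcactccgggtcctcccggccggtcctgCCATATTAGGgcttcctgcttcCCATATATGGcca
KLF4: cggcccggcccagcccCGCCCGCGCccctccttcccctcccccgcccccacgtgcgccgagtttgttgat
DUSP8: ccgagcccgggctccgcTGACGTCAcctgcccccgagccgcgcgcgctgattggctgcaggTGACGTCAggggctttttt
The table held 52 promoter windows (250 bases before to 50 after a start) for 34 of the 44 genes. The CRE (TGACGTCA) was present in 9.62% of these windows and in 1.85% of all 35116 windows, in DUSP1, DUSP8, JUND, MAFF and ZFP36L1. The CArG box was present in 5.77% of member windows (EGR1, EGR2 and SRF) and in 1.29% of all windows. The EGR site (GCGNGGGCG) was present in 19.2% and 9.43%, the AP-1 site (TGANTCA) in 5.77% and 7.71%, and the ETS core (CCGGAAG) in 3.85% and 10.3%, of member and all windows respectively. The CRE does not contain the AP-1 pattern. A match describes the letters in the window, and no binding was measured.

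**Figure D1:**
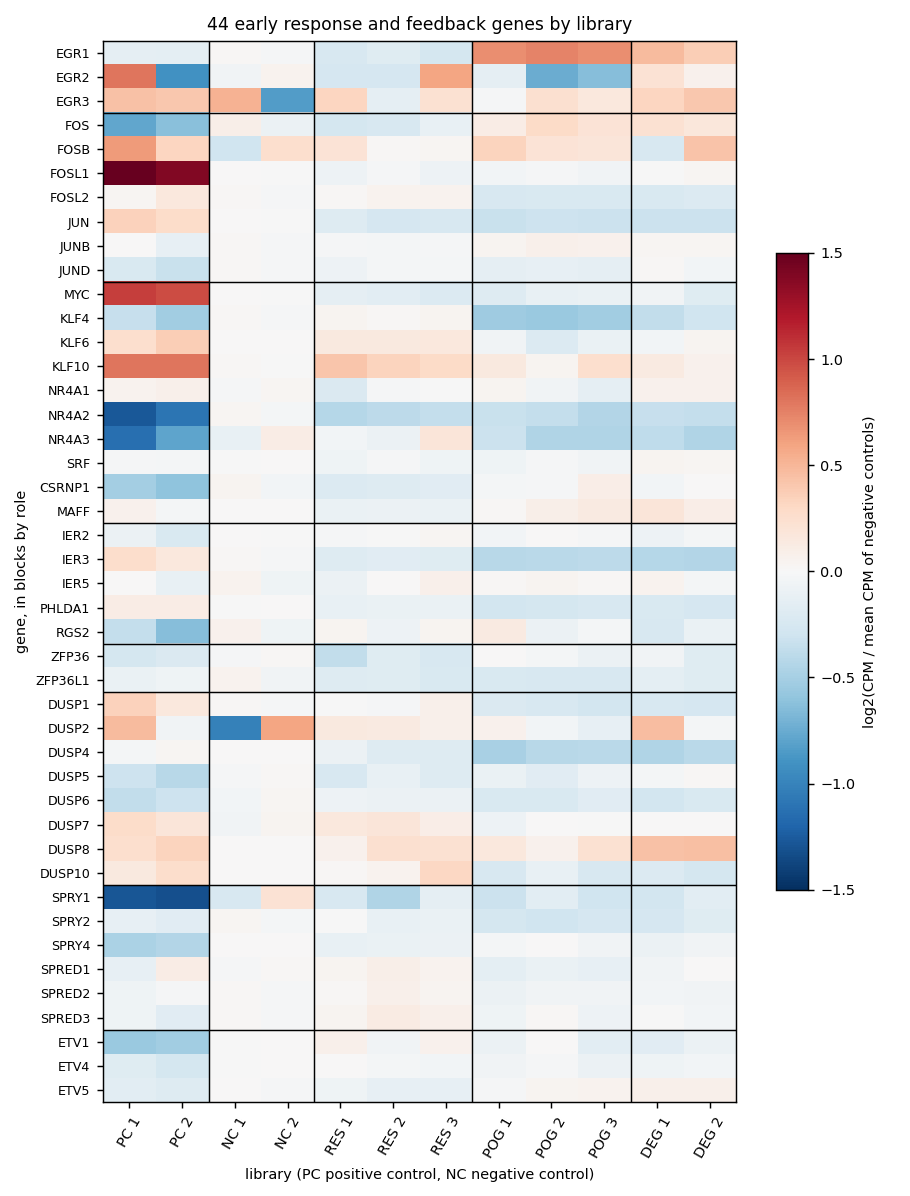
Level of each of the 44 genes (rows, in blocks by role) in each of the 12 libraries (columns), as log2 of CPM over the mean CPM of the negative controls (red higher, blue lower, colour limits at 1.5). The serum libraries stand apart at FOSL1, MYC, NR4A2 and SPRY1, the POG and DEG libraries at EGR1, and libraries of a group differ mainly at EGR2, EGR3 and DUSP2, which rest on few reads.

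Positive and negative controls were compared to ask how these genes differ between cells kept in serum and cells deprived of it. With serum, FOSL1, MYC and KLF10 were higher, while NR4A2, NR4A3, FOS, SPRY1 and the PEA3 factors were lower, so the immediate early genes did not move as a block. Of the 44 genes 28 were called, against 42.4% of all genes tested. They divided into 10 higher (all genes, 21.5%) and 18 lower (all genes, 20.9%). Among genes with at least 10 CPM the share called was 68.6% of 35 members and 57.1% of all. The median absolute log2 fold change was 0.24 for the members and 0.21 for all genes.

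Among the AP-1 subunits, FOSL1 (FRA-1, a FOS family member that is more long-lived than FOS) had the strongest rise. It was present at 405 and 373 CPM with serum and at 144 and 142 CPM without it. The groups were far apart, with a log2 fold change of 1.45 (SE 0.0378, FDR 7.18e-260). FOS went the other way, from 10.4 and 9.25 CPM without serum to 5.69 and 6.35 CPM with it. This was a log2 fold change of -0.71 (SE 0.106, FDR 4.65e-10), and the groups did not overlap. JUN was also higher (0.31) and JUND lower (-0.29), so 2 of the 7 subunits rose and 2 fell (all genes, 21.5% and 20.9%). EGR1, the EGR member with substantial reads, differed little, with 87.1 and 86.9 CPM with serum and 96.8 and 94.8 CPM without. Its log2 fold change of -0.14 (SE 0.0425, FDR 0.00697) was lost without negative control replicate 1 (FDR 0.0836).

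Of the other early transcription factors 3 rose and 4 fell out of 10 (all genes, 21.5% and 20.9%). MYC, a driver of growth and ribosome production, was at 96 and 92 CPM with serum and at 46.7 and 46.5 CPM without it. The difference was 1.01 on the log2 scale (SE 0.0497, FDR 1.57e-85), with the libraries of each group almost level. NR4A2 (NURR1, an orphan nuclear receptor induced by stress and cAMP) was at 21.3 and 24.1 CPM with serum and at 52.5 and 50.2 CPM without. Both serum libraries lay below both starved ones, with a log2 fold change of -1.18 (SE 0.059, FDR 1.87e-86). Its relative NR4A3 fell by 0.96, CSRNP1 by 0.55 and KLF4 by 0.43 on the log2 scale, while KLF10, a TGF-beta early gene, rose by 0.80 and KLF6 by 0.32.

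Among the other early proteins 2 of 5 rose and 2 fell (all genes, 21.5% and 20.9%). The rise of PHLDA1 (0.11, FDR 0.00354) was not called with dispersions from the groups compared (FDR 0.153) or with plain library totals (0.067, FDR 0.092). RGS2, which turns off G protein signalling, was at 5.67 and 4.67 CPM with serum and 7.62 and 6.94 CPM without (log2 fold change -0.49, SE 0.12, FDR 0.000234). IER3 was at 722 and 666 CPM with serum and at 606 and 592 CPM without, a smaller difference of 0.21 (SE 0.0317, FDR 1.36e-07) between groups that did not overlap. ZFP36 (tristetraprolin), which binds AU-rich elements of mRNAs, was at 19.3 and 19.9 CPM with serum and 22.9 and 23.4 CPM without. Its log2 fold change was -0.24 (SE 0.0714, FDR 0.003), and the call was lost without negative control replicate 2 (FDR 0.0511).

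The feedback genes moved in both directions. Of the 8 phosphatases 3 rose (DUSP1 0.26, DUSP7 0.23 and DUSP8 0.29) and 2 fell (all genes, 21.5% and 20.9%). DUSP5, a nuclear phosphatase for ERK, was at 76.3 and 70.7 CPM with serum and at 93.6 and 95.2 CPM without (log2 fold change -0.36, SE 0.0471, FDR 4.18e-12). DUSP6, its cytoplasmic counterpart, was at 43.3 and 45 CPM with serum and at 54.4 and 57.1 CPM without (-0.34, SE 0.048, FDR 1.51e-10). Both genes lay lower in every serum library than in either starved one, whereas DUSP7, which also acts on ERK, rose. Of the 6 Sprouty and SPRED genes 3 fell (all genes, 20.9%). The fall of SPRY2 (-0.14, FDR 0.015) was not called with dispersions from the groups compared (-0.15, FDR 0.0664). It was also lost without positive control replicate 2 (-0.11) or negative control replicate 1 (-0.12). SPRY1 was at 1.88 and 1.83 CPM with serum and at 3.85 and 5.28 CPM without, the largest fall on the list (log2 fold change -1.30, SE 0.173, FDR 1.22e-12), though at a low level and with negative controls that differ from each other. SPRY4 was at 89.6 and 91.7 CPM with serum and at 125 and 124 CPM without (-0.46, SE 0.0373, FDR 8.74e-28). All 3 PEA3 ETS factors, transcription factors downstream of ERK, were lower with serum (all genes, 20.9%). ETV1 stood at 26.9 and 27.6 CPM against 39.5 and 39.7 CPM (-0.54, SE 0.06, FDR 2.99e-17), and ETV4 at 118 and 112 CPM against 133 and 135 CPM (-0.22, SE 0.0379, FDR 3.39e-07).

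**Figure D2:**
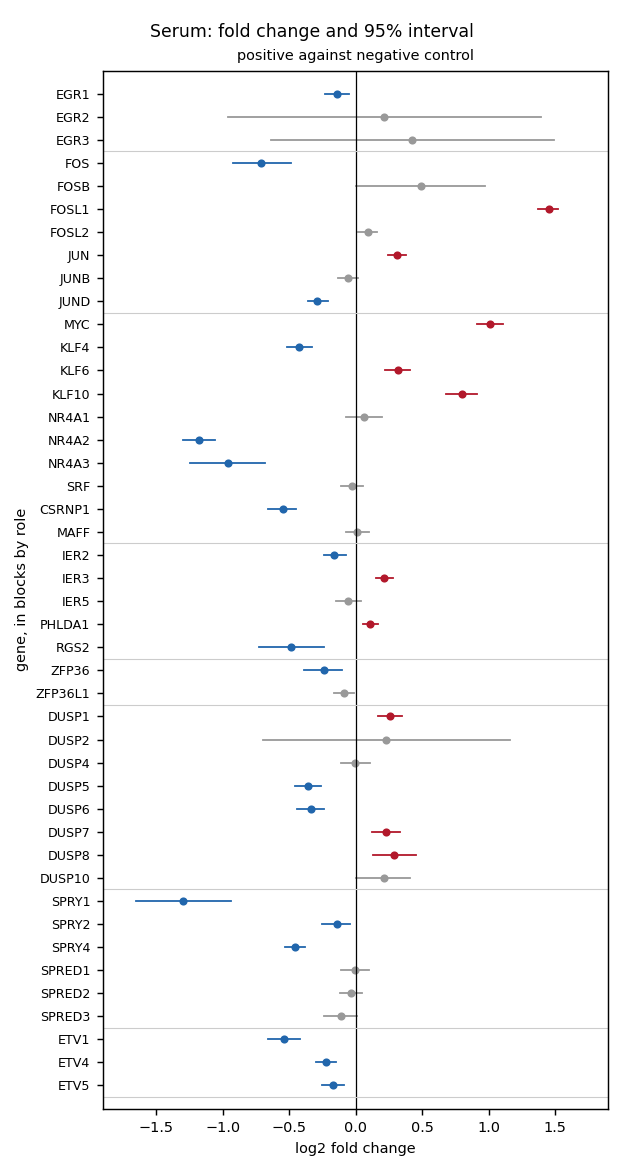
Log2 fold change (x axis) of each gene (y axis, in blocks by role) between positive and negative controls, with its 95% interval from the quasi-likelihood fit (red called higher, blue called lower, grey not called). FOSL1 lies farthest to the right at 1.45 and SPRY1 farthest to the left at -1.30, and the intervals of EGR2, EGR3 and DUSP2 are the widest.

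Each compound was then compared with the same 2 negative control libraries, to ask what differs once it is added. For DEG the medium is not described, so a difference in medium and the compound cannot be told apart. These 3 comparisons share their controls, so a control library that stands apart would move all of them, and the values are given side by side. The changes were smaller than with serum: the largest was 0.71 on the log2 scale. Of the 44 genes 14 were called with RES (all genes, 11.2%), 14 with POG (all genes, 14.6%) and 15 with DEG (all genes, 9.64%). Most calls were falls, with 11 for RES, 13 for POG and 12 for DEG (all genes, 6.25%, 8.6% and 6.11%). Rises numbered 3, 1 and 3 (all genes, 4.94%, 5.98% and 3.52%). Among genes with at least 10 CPM, 40% of members were called with RES (all genes 15.8%), 37.1% with POG (20.1%) and 40% with DEG (13.8%). The median log2 fold change of the members was -0.036, -0.064 and -0.038, against 0.0011, 0.0023 and 0.00083 for all genes. Osteoblast markers moved with these groups as well: of the 9 tested, 3 were called lower in RES, 5 in POG and 4 in DEG (all genes, 6.25%, 8.6% and 6.11%), and 0 higher in each. With serum 3 of these markers were called higher and 1 lower (all genes, 21.5% and 20.9%). The part of these markers in the members' changes was not tested. Scaling by plain library totals gave 4 rises and 8 falls of members with RES, 2 and 13 with POG, 3 and 12 with DEG, and 9 and 21 with serum. It moved the share of rises among calls of all genes from 44.1% to 64% with RES, from 41% to 56% with POG, from 36.6% to 49.4% with DEG and from 50.6% to 41% with serum.

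With RES, KLF10 was the member that rose most. It was at 53.7, 50.6 and 49 CPM with RES against 40.6 and 39.9 CPM in negative controls, a log2 fold change of 0.35 (SE 0.0531, FDR 2.23e-08). KLF6 (0.15, FDR 0.0124) and DUSP7 (0.14, FDR 0.0392) rose less, and both calls were lost without negative control replicate 1 (FDR 0.135 and 0.487). KLF6 was also lost without negative control replicate 2 (FDR 0.122) and RES replicate 3 (FDR 0.0513), and DUSP7 without RES replicate 1 (FDR 0.103) and RES replicate 2 (FDR 0.158). NR4A2 was at 38.1, 39.3 and 40 CPM with RES against 52.5 and 50.2 CPM (-0.39, SE 0.0507, FDR 4.94e-12). All RES libraries thus lay well below both controls. ZFP36 was at 17.9, 20.5 and 19.7 CPM against 22.9 and 23.4 CPM (-0.26, SE 0.0652, FDR 0.00226), and leaving out negative control replicate 2 ended this call (FDR 0.084). JUN and EGR1 both fell by 0.23. JUN was at 144, 139 and 140 CPM against 166 and 164 CPM (SE 0.0325, FDR 3.08e-08), and EGR1 at 81.1, 84.7 and 80 CPM against 96.8 and 94.8 CPM (SE 0.0389, FDR 4.29e-06). The other 7 falls lay between -0.21 (ZFP36L1) and -0.11 (PHLDA1). Without negative control replicate 1 or 2 the number of calls with RES dropped to 8.

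With POG, EGR1 was the single member called higher. Its levels were 155, 161 and 155 CPM against 96.8 and 94.8 CPM in negative controls, an increase of 63.8% (log2 fold change 0.71, SE 0.0384, FDR 2.5e-64). Every POG library exceeded every library of the other 4 groups, serum included. Of the falls KLF4, a Krüppel-like factor that restrains proliferation, came at the head: 57.9, 56.9 and 58.3 CPM against 84.8 and 82.3 CPM (-0.53, SE 0.0432, FDR 1.6e-29). DUSP4, a nuclear phosphatase for ERK, JNK and p38, was at 30.5, 32.2 and 32.3 CPM against 42.8 CPM in both controls (-0.43, SE 0.0501, FDR 6.34e-15). These groups were cleanly apart. NR4A3 was at 5.33, 4.88 and 4.86 CPM against 6.15 and 7.17 CPM (-0.41, SE 0.12, FDR 0.00808), and its call was lost without negative control replicate 2 (FDR 0.29). The other 10 falls ranged from -0.40 (IER3) to -0.13 (JUND, lost without negative control replicate 1, FDR 0.141), and included NR4A2 (-0.37), JUN (-0.32), SPRY2 (-0.27), DUSP1 (-0.25), FOSL2 (-0.23) and DUSP6 (-0.21).

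With DEG, DUSP8, a phosphatase that acts on JNK and p38, and EGR1 rose most. DUSP8 was at 20.6 and 20.7 CPM against 15.2 and 15.3 CPM (0.44, SE 0.0781, FDR 2.01e-06). EGR1 was at 133 and 124 CPM against 96.8 and 94.8 CPM, an increase of 34.1% (0.42, SE 0.0419, FDR 2.14e-18). Both DEG libraries lay above both controls for each gene. MAFF, a small MAF factor, rose by 0.13 (FDR 0.0365), but lost its call without negative control replicate 1 (FDR 0.162), negative control replicate 2 (FDR 0.233) or DEG replicate 1 (FDR 0.505). IER3 was at 447 and 443 CPM against 606 and 592 CPM (-0.43, SE 0.032, FDR 1.29e-26). DUSP4 was at 31.4 and 32.4 CPM against 42.8 CPM in both controls (-0.42, SE 0.0559, FDR 2.84e-11). At IER3 and DUSP4 both DEG libraries lay below both controls. NR4A3 was at 5.11 and 4.89 CPM against 6.15 and 7.17 CPM (-0.41, SE 0.135, FDR 0.0277). Its call was lost without negative control replicate 2 (FDR 0.377), DEG replicate 1 (FDR 0.129) or DEG replicate 2 (FDR 0.229), and by the quasi-likelihood test (FDR 0.0529). The other 9 falls lay between -0.35 (NR4A2) and -0.16 (ZFP36L1), among them KLF4 (-0.33), JUN (-0.32), DUSP1 (-0.25) and DUSP6 (-0.25).

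**Figure D3:**
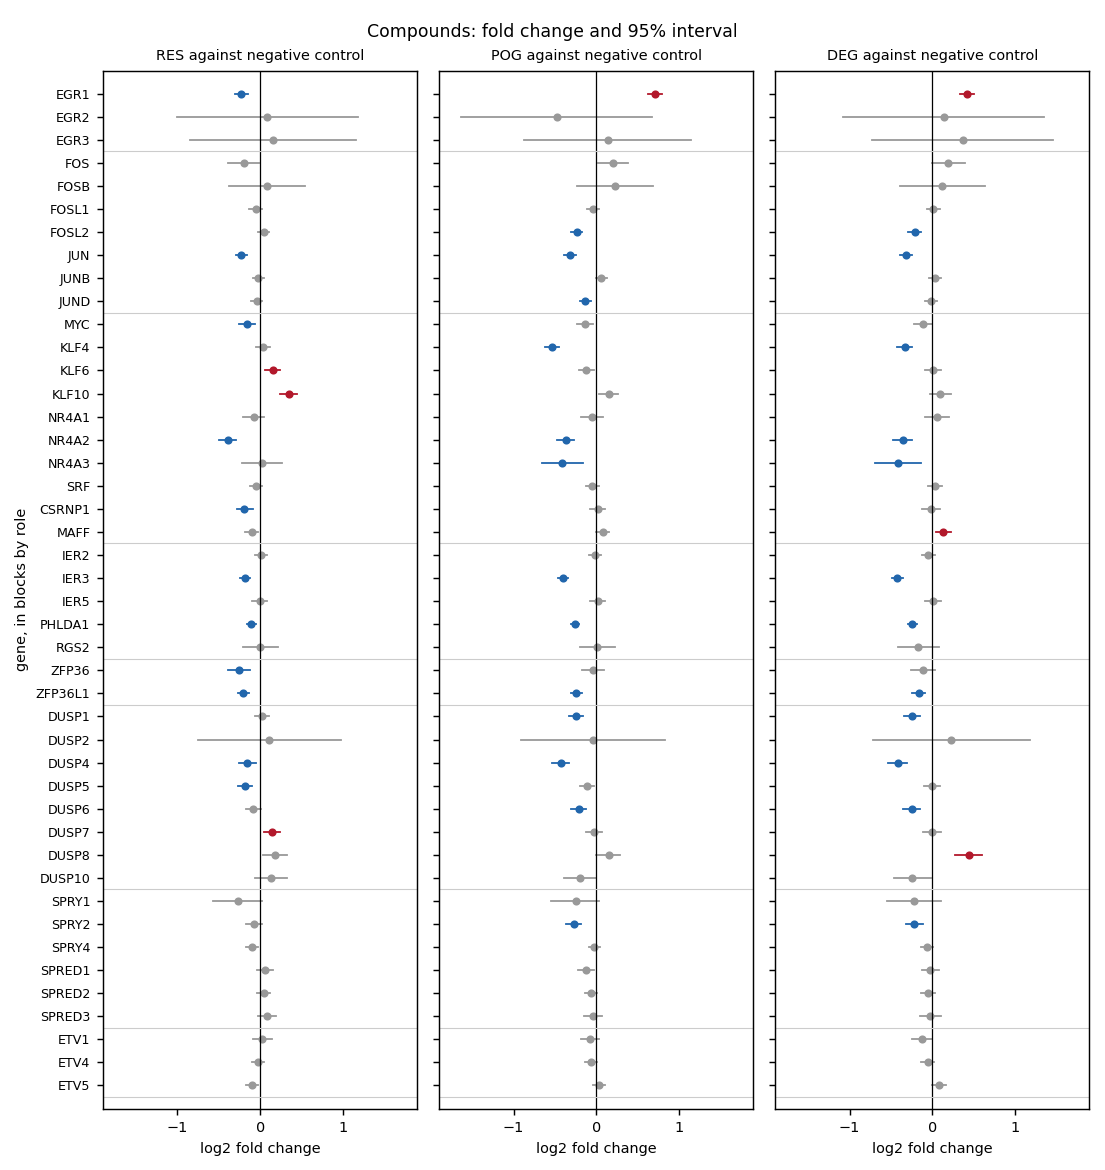
Log2 fold change (x axis) of each gene (y axis, in blocks by role) in RES, POG and DEG against the same negative controls, with 95% intervals (red called higher, blue called lower, grey not called). EGR1 lies to the left for RES (-0.23) and to the right for POG (0.71) and DEG (0.42), while NR4A2, JUN, IER3 and DUSP4 lie to the left in all 3 panels.

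Across the 3 compounds 7 genes (15.9%) were called each time, against 2.35% of all genes tested, in comparisons that share their controls. The members' median level is above that of all genes (62.9 against 17.5 CPM), and this overlap was not compared among genes of like level. JUN, NR4A2, IER3, PHLDA1, ZFP36L1 and DUSP4 were lower with every compound. With RES, POG and DEG the log2 fold changes were -0.23, -0.32 and -0.32 for JUN and -0.39, -0.37 and -0.35 for NR4A2. The calls of DUSP4 and PHLDA1 with RES were lost without negative control replicate 1 (FDR 0.174 and 0.0716) or negative control replicate 2 (FDR 0.187 and 0.183). DUSP4 with RES was also lost without RES replicate 2 (FDR 0.121) or RES replicate 3 (FDR 0.111). ZFP36L1 with DEG was lost without negative control replicate 1 (FDR 0.192) or DEG replicate 2 (FDR 0.0778). EGR1 is the exception in direction. There were 21 genes (47.7%, all genes 75.9%) that no compound comparison called. FOSL1, the strongest serum gene, was among them, at 136 to 146 CPM in all compound libraries, with intervals of the log2 fold change of -0.13 to 0.017 for RES, -0.11 to 0.035 for POG and -0.069 to 0.089 for DEG. MYC stayed below its serum level in each, at 40.5 to 45.1 CPM, and fell with RES (-0.16, FDR 0.0138, lost without negative control replicate 1 at FDR 0.141, negative control replicate 2 at FDR 0.13 and RES replicate 3 at FDR 0.0819). FOS changed by -0.20 with RES (FDR 0.16), 0.20 with POG (FDR 0.124) and 0.19 with DEG (FDR 0.25), and these were not called.

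**Figure D4:**
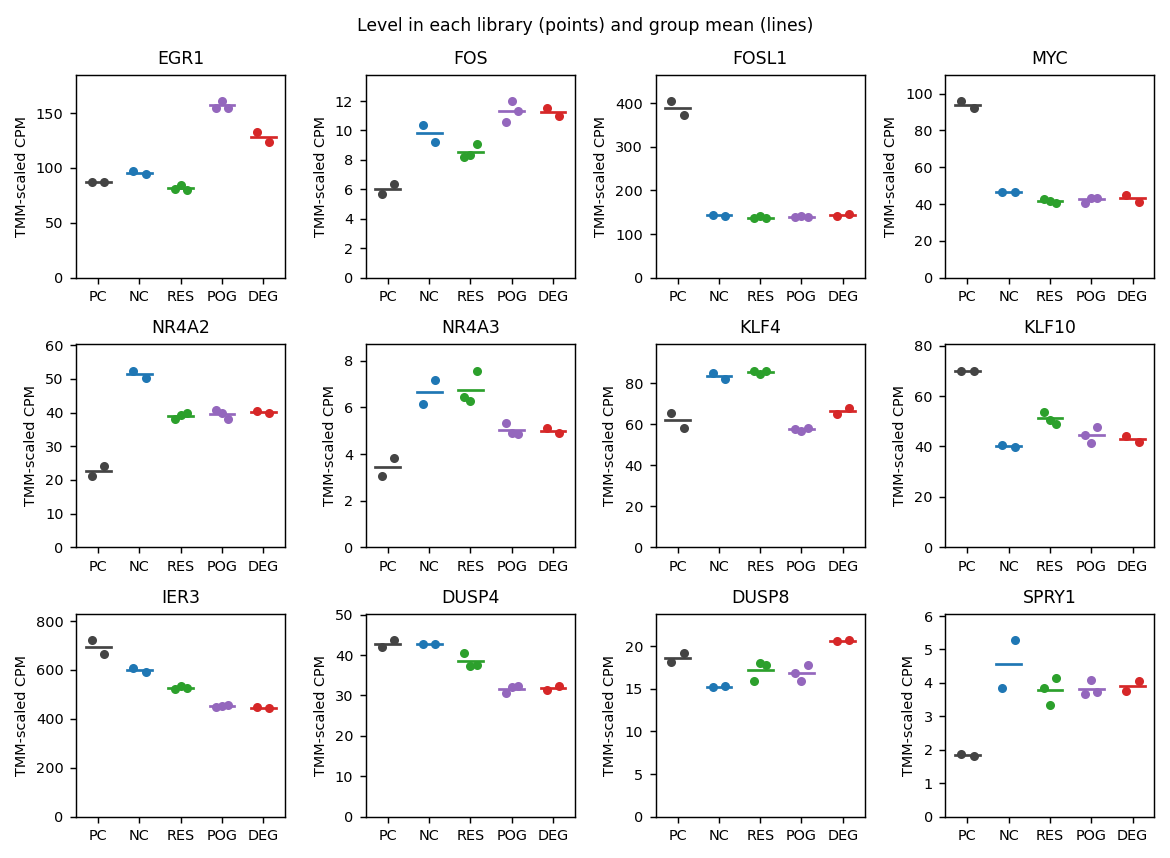
TMM-scaled CPM (y axis, from 0) of 12 of the genes in each library (points) with group means (lines), for positive controls (PC), negative controls (NC), RES, POG and DEG. EGR1 runs from 80 CPM in RES to 161 CPM in POG, FOSL1 and MYC are high in PC alone, and NR4A2 is highest in NC.

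The compounds were also set against each other at the same dose by mass, 1 µg/ml, in 3 pairs. These direct comparisons have no negative control library on either side, though scaling and dispersions came from all 12 libraries. Each compound group serves in 2 of the 3 pairs. In the 2 pairs with DEG, whose medium is not described, a difference in medium and the compound cannot be told apart. Of the 44 genes 25 were called between POG and RES (all genes, 27.9%), with 7 higher in POG (all genes, 13.7%) and 18 lower (all genes, 14.1%). Between DEG and RES 22 were called (all genes, 21.2%), 7 higher in DEG (all genes, 10.4%) and 15 lower (all genes, 10.9%). Between DEG and POG 3 were called (all genes, 1.07%), 2 higher in DEG (all genes, 0.573%) and 1 lower (all genes, 0.497%). Among genes with at least 10 CPM, 62.9% of members were called between POG and RES (all genes 37.7%). For DEG and RES the share was 54.3% (all genes 29%), and for DEG and POG 8.57% (all genes 1.58%). All these calls use FDRs adjusted over the genes within a pair. Adjusted over the 3 pairs together, 23, 21 and 5 members were called, with JUNB and SPRED3 (POG and RES) and JUN (DEG and RES) no longer among them and JUND (FDR 0.0124) and KLF6 (FDR 0.043) added for DEG and POG.

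POG and RES differed most at EGR1, with POG at 155 to 161 CPM and RES at 80 to 84.7 CPM. The log2 fold change was 0.94 (SE 0.0339, FDR 1.15e-143), so that POG exceeded RES by 91.5%. KLF4 was at 57.9, 56.9 and 58.3 CPM in POG and 85.9, 84.5 and 86.2 CPM in RES (-0.57, SE 0.0386, FDR 1.61e-42). NR4A3 was at 5.33, 4.88 and 4.86 CPM in POG and 6.46, 6.26 and 7.58 CPM in RES (-0.43, SE 0.106, FDR 0.000402). No library of one compound reached the range of the other for these genes. FOS was higher in POG (0.40, FDR 6.13e-06), at 10.6 to 12 CPM against 8.17 to 9.09 CPM. Of the phosphatases 5 of 8 were lower in POG (DUSP1, DUSP4, DUSP6, DUSP7 and DUSP10, from -0.33 to -0.13). So were 4 of the 6 Sprouty and SPRED genes (SPRY2, SPRED1, SPRED2 and SPRED3, from -0.20 to -0.11), against 14.1% of all genes. The calls of SPRED2 and SPRED3 were lost without RES replicate 2 (FDR 0.0731 and 0.188) or POG replicate 1 (FDR 0.0573 and 0.149), that of SPRED3 also without RES replicate 3 (FDR 0.0933) or POG replicate 3 (FDR 0.171), and that of DUSP6 without POG replicate 2 (FDR 0.0545).

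DEG and RES also differed most at EGR1, at 133 and 124 CPM in DEG against 81.1, 84.7 and 80 CPM in RES (0.65, SE 0.0379, FDR 8.91e-54). NR4A3 was at 5.11 and 4.89 CPM in DEG and at 6.46, 6.26 and 7.58 CPM in RES (-0.44, SE 0.122, FDR 0.00336), a call lost without DEG replicate 2 (FDR 0.0844). FOS was at 11.5 and 11 CPM in DEG against 8.17, 8.32 and 9.09 CPM in RES (0.40, SE 0.0906, FDR 0.000212). Each of these genes kept its groups apart. KLF4 and DUSP10 both had a log2 fold change of -0.37. Of the 8 phosphatases 5 were lower (all genes, 10.9%) and 2 higher (DUSP5 and DUSP8; all genes, 10.4%). Without DEG replicate 2 the calls of DUSP5 (FDR 0.0676), DUSP7 (FDR 0.145) and DUSP10 (FDR 0.0573) were lost, and without DEG replicate 1 those of DUSP6 (FDR 0.097) and DUSP7 (FDR 0.16). DUSP7 was also lost without RES replicate 1 (FDR 0.0633) or RES replicate 2 (FDR 0.107).

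DEG and POG differed at EGR1, KLF4 and DUSP8, the genes whose promoter stretches are printed above. EGR1 was 18.1% lower in DEG, at 133 and 124 CPM against 155, 161 and 155 CPM (-0.29, SE 0.0374, FDR 1.48e-09). KLF4 was at 64.9 and 67.7 CPM in DEG and 57.9, 56.9 and 58.3 CPM in POG (0.20, SE 0.0443, FDR 0.00491). DUSP8 was at 20.6 and 20.7 CPM in DEG and 16.9, 15.9 and 17.8 CPM in POG (0.29, SE 0.0692, FDR 0.00806). The groups of all 3 genes did not overlap, but leaving out POG replicate 2, DEG replicate 1 or DEG replicate 2 ended the calls of KLF4 (FDR 0.0509, 0.0604 and 0.333) and DUSP8 (FDR 0.1, 0.17 and 0.187), and kept that of EGR1. For genes not called the intervals bound the difference. That of JUN was -0.066 to 0.069, that of IER3 -0.086 to 0.034, that of DUSP4 -0.10 to 0.12 and that of NR4A2 -0.086 to 0.13 on the log2 scale. At FOS the interval was wider, from -0.19 to 0.17, and at SPRY1 wider still, from -0.26 to 0.33.

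**Figure D5:**
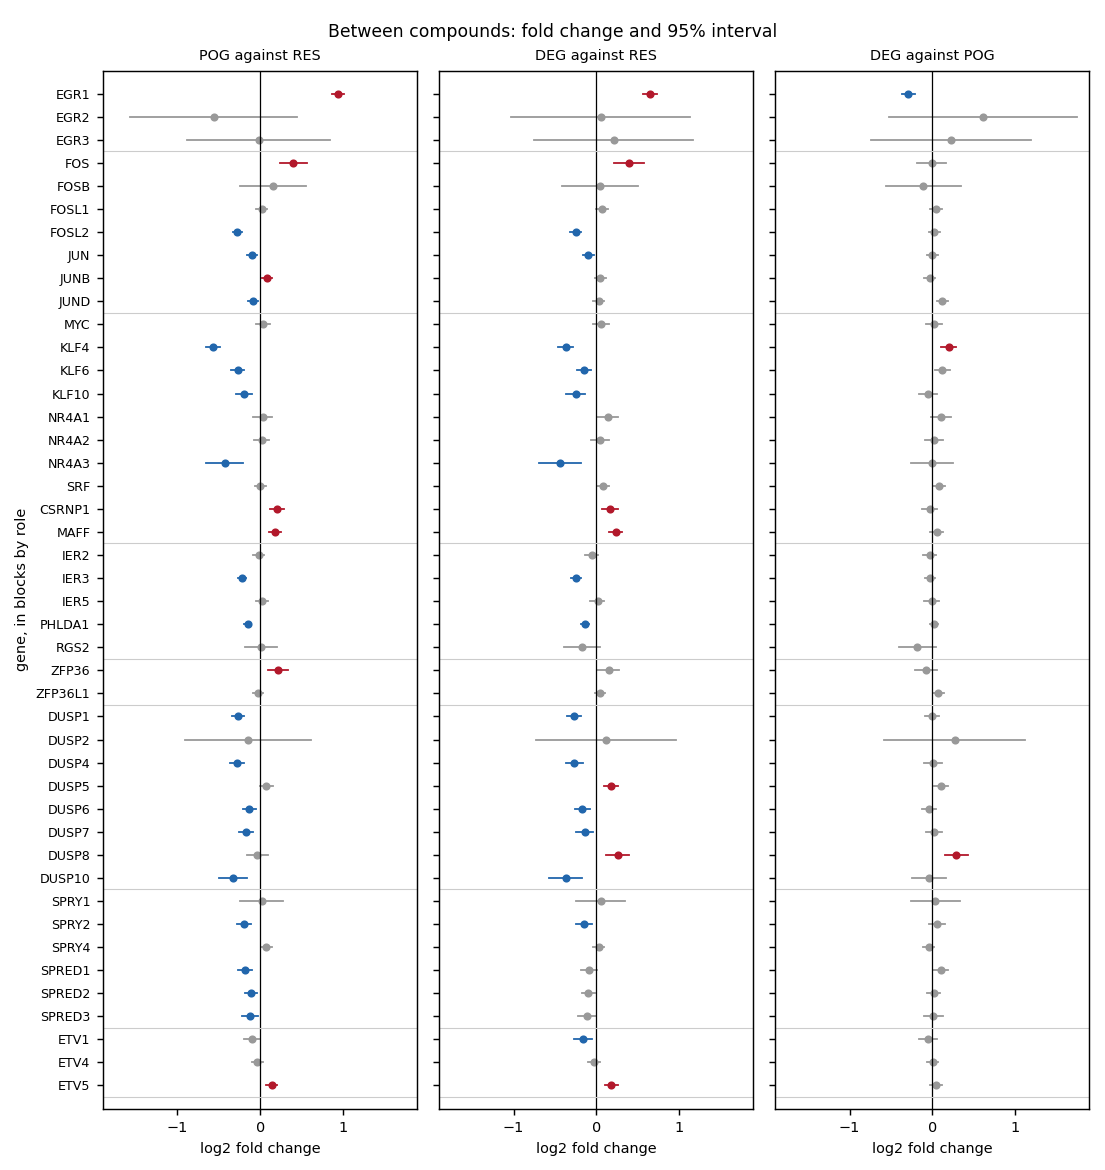
Log2 fold change (x axis) of each gene (y axis, in blocks by role) between compounds at the same dose, for POG against RES, DEG against RES and DEG against POG, with 95% intervals (red called higher in the compound named before the word against, blue called lower, grey not called). EGR1 lies at 0.94, 0.65 and -0.29, and most other genes of the third panel lie near 0.

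The 3 genes below 1 CPM give little information. EGR2 had 6 to 23 reads in a library, EGR3 6 to 18 and DUSP2 9 to 32, and the 2 positive controls (23 and 6 reads for EGR2) or the 2 negative controls (9 and 28 reads for DUSP2) differed from each other by more than any group mean did. With serum their log2 intervals were wide: -0.96 to 1.39 for EGR2, -0.64 to 1.49 for EGR3 and -0.7 to 1.16 for DUSP2. Changes within such intervals could not be resolved at this depth. EGR2, EGR3 and DUSP2 are among the 7 genes called in no comparison, with FOSB, NR4A1, SRF and IER5.

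The other genes of the pathway were followed through 3 lists. Of 25 genes of the ERK cascade, 5 rose and 8 fell with serum (all genes, 21.5% and 20.9%), among them HRAS (0.33) and KSR1, a scaffold of RAF and MEK (-0.37). With the compounds there were 2 falls for RES, 3 falls and 1 rise for POG, and 2 falls for DEG, shares near those of all genes (6.25%, 8.6% and 6.11% lower). The same 2 genes led these falls, RPS6KA2, an ERK-activated kinase (-0.27, -0.24 and -0.26 with RES, POG and DEG), and KSR1 (-0.19, -0.25 and -0.17). Of 15 genes of the JNK and p38 cascades, 2 rose and 4 fell with serum (all genes, 21.5% and 20.9%), among them MAPKAPK3 (0.29) and MAPK11, a p38 kinase (-0.45). With RES 5 fell (MAPK11 -0.27; all genes, 6.25%), and POG and DEG each had 1 fall (MAPKAPK2 -0.10 and MAPKAPK3 -0.19), near the share of all genes (8.6% and 6.11%). POG exceeded RES at 4 of these 15 (all genes, 13.7%), with MAPK11 at 0.32.

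Of 25 other early or delayed early genes, 16 rose and 4 fell with serum (all genes, 21.5% and 20.9%). ID1, an inhibitor of DNA binding (1.05), and CCN1, a matricellular protein of growing and loaded cells (0.97), rose most, and BTG2 (-0.88) and ATF3 (-0.49) fell most. With RES 5 rose and 4 fell (all genes, 4.94% and 6.25%), led by KLF2 (0.55) and GADD45A (0.38) and by ID3 (-0.28). With POG 4 rose and 9 fell (all genes, 5.98% and 8.6%), and with DEG 3 rose and 6 fell (all genes, 3.52% and 6.11%). In these, GADD45A, a growth arrest gene, rose (0.41 and 0.24), as did ARC (0.70 and 0.87, at 1.09 CPM in negative controls), and SGK1 fell (-0.48 and -0.40). NPAS4 was also called lower with both, but at means of 0.191, 0.0294 and 0.0127 CPM in negative controls, POG and DEG it rests on a few reads and no fold is given. DEG exceeded POG at 2 of the 25 (all genes, 0.573%), CCN1 (474 ± 1.55 against 363 ± 8.26 CPM, SD, n = 2 and 3, log2 fold change 0.38, edgeR FDR 3.48e-28) and CCN2 (232 ± 5.84 against 167 ± 1.25 CPM, SD, n = 2 and 3, 0.47, edgeR FDR 3.64e-38). KLF2 was lower in POG (-0.67) and in DEG (-0.53) than in RES.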

How the data were processed

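Libraries of polyA RNA were sequenced as read pairs. The authors deposited raw counts of reads per gene, not normalized, and per the labels used STAR, featureCounts and hg38, with program versions, annotation release and strand setting not given in the sources used here. Of 13 labelled samples 12 had a column, and DEG replicate 3 was not analysed here. Identifiers were matched to symbols for 98.6% of 43836 genes.

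Counts were analysed in R 4.3.3 with edgeR 4.0.16: filterByExpr by group (17092 genes kept), TMM scaling, dispersions from all 12 libraries (common biological coefficient of variation 3.2%), the exact test and the adjustment of Benjamini and Hochberg over all genes kept. Standard errors and 95% intervals came from the quasi-likelihood fit. The code of the test was checked on counts simulated from its own fitted model. That check does not bear on how well the model fits these libraries. Positions and lengths came from GENCODE release 44.

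Members and lists were chosen with earlier results of these data known. Genes named in full were, with serum, the 2 largest called changes of each role, against negative controls the 3 largest rises and falls, and between compounds the 3 largest changes; others are given by count, range or single value, FOS, MYC and FOSL1 after their values were seen. Alternatives were the quasi-likelihood test, DESeq2 1.42.0, other scalings, filters, dispersions and thresholds, and leaving out each library.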

Additional observations from a re-analysis of the deposited data

Results flagged for a closer look

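EGR1 moved in opposite directions with RES and with the other compounds relative to the shared negative controls. It was lower in all 3 RES libraries (log2 fold change -0.23) and higher in all 3 POG libraries (0.71) and both DEG libraries (0.42). The direct test of POG against RES gave 0.94 (edgeR exact test, FDR 1.15e-143) and that of DEG against RES gave 0.65 (edgeR exact test, FDR 8.91e-54). Both differences kept their direction and their call in every alternative run except the demand for a fold change of at least 1 on the log2 scale, with values of 0.92 to 0.96 for POG against RES and 0.59 to 0.70 for DEG against RES. The cause was not tested.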

How the results depend on the processing

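No paired analysis was possible because the labels give no replicate number, so the numbers used here only name the libraries. When a fold change of at least 1 on the log2 scale was demanded, the count of members called fell to 4 for positive against negative controls (2 higher and 2 lower) and to 0 for each of the other 6 comparisons, where edgeR's exact test without this demand called 3 to 25. With dispersions from the groups compared, 8 members were called between DEG and POG, and with p-values adjusted over the 3 compound pairs together, an alternative added after seeing the data, 5. Leaving out 1 library at a time gave 8 to 14 calls for RES against negative controls and 1 to 3 for DEG against POG, and counts within 1.5 times the reported ones for the other comparisons. SPRED1 (log2 fold change -0.0043 with serum, not called) was called lower without positive control replicate 2 (-0.11, FDR 0.0227) and higher without positive control replicate 1 (0.11, FDR 0.0282). Apart from that demand, calls kept in every alternative run with p-values adjusted within a comparison numbered 24 of 28 with serum, 6 of 14 with RES, 12 of 14 with POG, 11 of 15 with DEG, 19 of 25 for POG against RES, 12 of 22 for DEG against RES and 1 of 3 for DEG against POG, that of EGR1. The cause of these losses was not tested. With 2 or 3 libraries a group, small changes and genes of few reads (EGR2, EGR3 and DUSP2) are the least certain.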
